A study of Mus musculus with 8 samples.

Results

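The open chromatin of normal liver sinusoidal endothelial cells (LSECs) was described from the 4 control ATAC-seq libraries of the series, which holds 8 libraries in all, across every one of the 58522 peaks of the deposited table. In ATAC-seq the Tn5 transposase inserts adapters into accessible DNA, so the number of reads in a region follows its accessibility. The control mice were 12 weeks old and were littermates of the knockout mice. They carried floxed Maf alleles (Maf fl/fl or Maf fl/wt) without the iCre transgene (Clec4g-iCre wt/wt), so that Maf, which encodes a large MAF-family transcription factor, remained functional. Liver tissue of 3 mice was pooled, cells were selected with magnetic beads against the endothelial surface protein CD146, and 50000 cells went into each library. The authors state that cells selected in this way also hold endothelium of larger hepatic vessels. They use the name LSECs for all of them, as is done here. The labels do not say which animals stand behind which library, so the spread between libraries may be technical in part. The 4 Maf knockout libraries of the same table were not used here, except that the list of peaks was merged over both genotypes.

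LSECs line the hepatic sinusoids. They are perforated by pores, the fenestrae, lack a continuous basement membrane and clear waste from the blood through scavenger receptors. They also release signals, such as Wnt ligands and BMPs, that act on neighbouring hepatocytes. A cell type opens the promoters of genes used in every cell together with distal elements that are particular to its lineage, and in endothelium these elements are known to bind factors of the ETS, GATA, SOX and AP-1 families.

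The libraries held 5367124, 8159726, 5529802 and 13364062 reads in peaks in control replicates 1 to 4, and 19 peaks had no read in at least 1 of them. Peaks were 157 to 9766 bases wide with a median of 573, and their mean control level ran between 2.39 and 269 RPKM (reads scaled to peak width and library size) with a median of 15.8. Over the 53099 peaks with enough reads, the 6 pairs of libraries correlated with Pearson's r between 0.906 and 0.955 on the log2 scale. The lowest 2 values, 0.906 each, paired replicate 4 with replicates 1 and 3. The highest, 0.955, paired the 2 deeper libraries, replicates 2 and 4. The first principal component held 58.1% of the variance. It placed replicates 1 and 3 at 1 end (-50.7 and -52.3) and replicate 4, the deepest library, at the other (80.9). Replicate 2 lay between them (22.1). The values of replicate 4 are given with the results.

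In all LSEC markers a distal peak exceeded the peak at the start or came within its spread (SD over the control libraries). For Lyve1 this spread was wide, with 28.8 ± 10.9 RPKM at the promoter against 19.6 RPKM at the strongest distal peak. That distal peak was higher than the promoter in replicate 2 (23.5 against 21.7 RPKM) and lower in the other libraries. The central 200 bases of 1 distal peak per gene are shown. Each is the strongest peak of its gene by mean RPKM whose window avoids exonic UTRs. RPKM corrects for width, so such a peak need not hold much of its gene's reads. At Fcgr2b it held 32, 61, 48 and 105 of 791, 1438, 801 and 2768 reads in control replicates 1 to 4. At Lyve1 it held 65, 178, 77 and 338 of 281, 514, 318 and 1393 reads. All are plus-strand mm10 sequence, and capitals mark matches, on either strand, to AGATAA for GATA factors, to CAGGAAG for ETS factors, to ACAAAG for SOX factors, to TGCTGA for MAF factors or to TGANTCA for AP-1.
Maf, chr8:115650231-115650430: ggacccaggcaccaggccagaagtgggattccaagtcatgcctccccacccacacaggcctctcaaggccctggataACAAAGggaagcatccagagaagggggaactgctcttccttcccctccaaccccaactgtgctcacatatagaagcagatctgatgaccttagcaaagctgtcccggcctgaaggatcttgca
Stab2, chr10:86992680-86992879: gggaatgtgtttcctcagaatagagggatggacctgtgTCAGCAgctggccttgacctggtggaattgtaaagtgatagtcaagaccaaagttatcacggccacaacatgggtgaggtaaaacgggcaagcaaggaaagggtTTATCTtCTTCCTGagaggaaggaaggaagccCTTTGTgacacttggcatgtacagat
Wnt2, chr6:17942439-17942638: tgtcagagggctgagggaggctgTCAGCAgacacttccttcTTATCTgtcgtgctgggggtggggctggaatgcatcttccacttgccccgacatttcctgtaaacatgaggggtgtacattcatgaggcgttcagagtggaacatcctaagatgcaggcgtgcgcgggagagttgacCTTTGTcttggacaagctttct
Fcgr2b, chr1:170958247-170958446: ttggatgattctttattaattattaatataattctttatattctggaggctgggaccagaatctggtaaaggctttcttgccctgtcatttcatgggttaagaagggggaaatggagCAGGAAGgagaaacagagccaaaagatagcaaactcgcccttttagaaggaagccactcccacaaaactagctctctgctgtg
Dnase1l3, chr14:7997430-7997629: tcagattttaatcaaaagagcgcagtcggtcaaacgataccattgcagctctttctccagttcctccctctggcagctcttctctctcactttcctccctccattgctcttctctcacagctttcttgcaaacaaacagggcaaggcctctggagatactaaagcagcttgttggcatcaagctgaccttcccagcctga
Lyve1, chr7:110877229-110877428: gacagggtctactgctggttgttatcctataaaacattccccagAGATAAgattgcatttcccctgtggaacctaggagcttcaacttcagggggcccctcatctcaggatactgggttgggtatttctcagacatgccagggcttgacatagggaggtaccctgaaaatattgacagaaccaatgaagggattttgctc
The Maf window held a SOX match, the Stab2 window GATA, ETS, SOX and MAF matches, the Wnt2 window GATA, SOX and MAF matches, the Fcgr2b window an ETS match and the Lyve1 window a GATA match. No match to these letters lay in the Dnase1l3 window. The Fcgr2b peak is narrower than its window and lies in an MLT1A0 element, an LTR retrotransposon. Among all 34419 peaks over 1000 bases from any start and outside repeats and CpG islands, 18.3% held a MAF match in a window of this length, 17.7% a SOX, 20.3% an ETS, 14.3% a GATA and 10.5% an AP-1 match, so single matches of this kind are common. A match describes the letters and not a bound site.

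All 6 markers were accessible in every library, and Maf itself was among the genes with the largest summed signal. Reads summed over the 43 peaks nearest to Maf came to 580, 686, 604 and 827 CPM (reads scaled to library size after TMM) in control replicates 1 to 4, behind those of Jun and Cemip2 alone among 17780 genes. Much of this sum was distal, and counting only peaks within 50000 bases of the start, Maf ranked 634th. Stab2, the hyaluronan scavenger receptor stabilin-2, reached 308, 356, 287 and 421 CPM over 18 peaks and ranked 95th. Wnt2, a Wnt ligand of pericentral endothelium, reached 249, 240, 213 and 226 CPM over 6 peaks. Replicate 4 was highest for Maf and Stab2 and was not for Wnt2, whose 4 values lay close together.

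Fcgr2b, the inhibitory Fc receptor with which LSECs take up immune complexes, had 147, 180, 143 and 207 CPM over 10 peaks. For Dnase1l3, a secreted nuclease, the sum was 133, 152, 109 and 171 CPM over 5 peaks. Lyve1, a hyaluronan receptor, had the least, with 52.1, 64.3, 56.7 and 104 CPM over 4 peaks. Its mean of 69.3 ± 23.8 CPM (SD, n = 4) still lay at the 72.2nd percentile of all genes with a peak, whose median was 38.6 CPM. In each of these 3 genes replicate 4 was the highest library, and for Lyve1, whose mean without it was 57.7 CPM, it stood clear of the others. In bulk samples, fewer accessible cells and less accessibility per cell cannot be told apart.

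At Dnase1l3 and Lyve1 the strongest peak was at the start. The Dnase1l3 promoter peak (chr14:7993700-7994543) had 40.2, 43.1, 36.4 and 41.8 RPKM in control replicates 1 to 4, and an intergenic peak 3.35 kb upstream was close to it with 35.3, 41.8, 32.0 and 48.0 RPKM. The Lyve1 promoter peak (chr7:110862695-110863483) had 21.5, 21.7, 27.4 and 44.6 RPKM, again with replicate 4 far above the rest. At Wnt2, the promoter peak (chr6:18030117-18032341) and a peak 87.9 kb downstream of the start, in intron 14 of 14 of the neighbouring gene St7, were alike, with means of 42.5 ± 3.74 and 43.1 ± 7.71 RPKM (SD, n = 4).

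Maf, Stab2 and Fcgr2b were stronger away from their starts. The strongest Maf peak (chr8:115649743-115650918) was intergenic, 56.6 kb downstream, and had 50.7, 86.1, 58.0 and 86.1 RPKM in control replicates 1 to 4, against 34.8, 41.5, 38.7 and 49.9 RPKM at the promoter. Each library showed the same order between these 2 peaks. A peak with 38.8, 56.1, 43.1 and 62.1 RPKM lay 617 kb downstream, inside intron 8 of 8 of Wwox, and 30 of the 43 Maf peaks were over 100 kb from its start and held 59.4% of its signal. Assignment went by the nearest start, so a distal peak need not act on the gene it is listed under.

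At Stab2, the peak over the start was annotated as exon 1 of 69 and had 20.6, 20.4, 17.1 and 27.2 RPKM, whereas the peak in intron 3, 15.2 kb downstream (chr10:86992314-86993244), had 44.0, 52.7, 30.01 and 65.6 RPKM. An intergenic peak 17.2 kb upstream averaged 44.6 ± 10.6 RPKM. For Fcgr2b, the strongest peak lay at the gene end (chr1:170959807-170960115) with 46.4, 69.2, 38.9 and 65.3 RPKM, and the promoter peak was the weakest of the 10 with 22.6, 17.3, 11.9 and 19.2 RPKM. The plot of marker peaks by distance shows this layout.

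**Figure D1:**
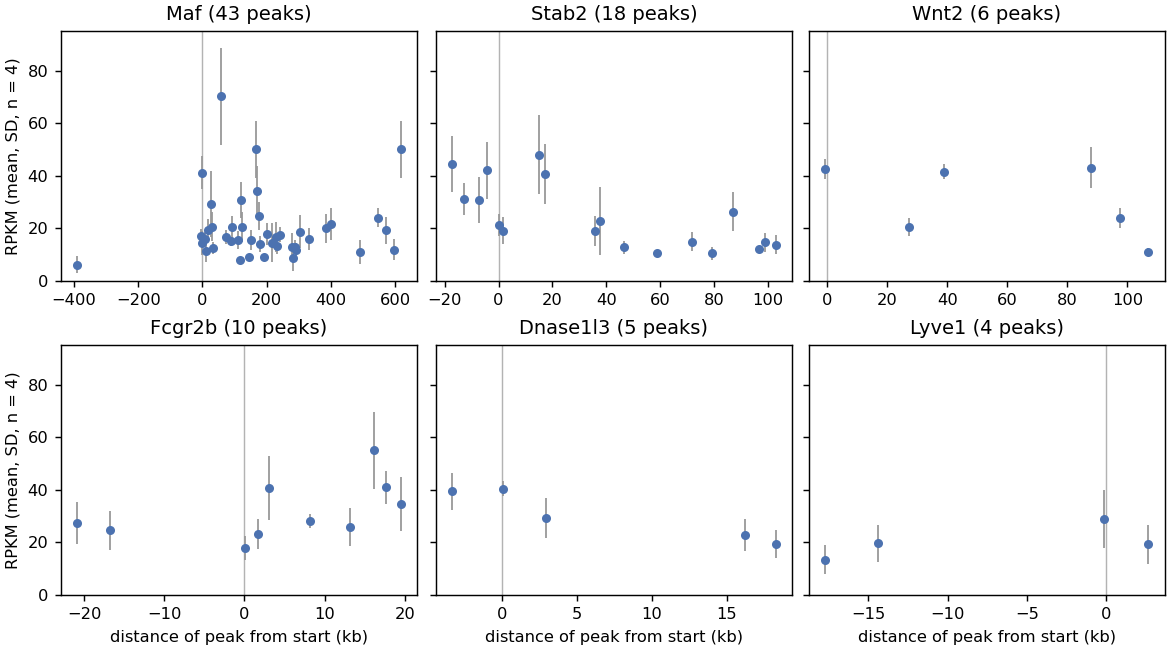
Peaks of the 6 LSEC markers by signed distance from the annotated start (x axis, kb, positive downstream) and mean control RPKM (y axis), with bars for the SD of 4 control libraries; the grey line is the start. The peaks of Maf reach 617 kb from its start, and the highest is at 70.2 RPKM and 56.6 kb downstream.

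Over the whole table, promoters were few but deep. HOMER's promoter class held 7753 peaks, 13.2% of the list, and 32.9%, 33.8%, 32.6% and 32.0% of the reads in control replicates 1 to 4. Introns held 42.8% of peaks and 31.7 ± 0.68% of reads, and intergenic regions held 35.7% of peaks and 23.9 ± 0.44% of reads (SD, n = 4 each). Exons, UTRs, gene ends and non-coding transcripts together made up the rest, each with under 5% of reads, and the 5′ UTR class was the strongest of them with a median of 24.8 ± 1.10 RPKM. These shares moved little between libraries, and in each library promoters took a far larger part of reads than of peaks.

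The median promoter peak had 28.2, 30.5, 28.0 and 31.6 RPKM in control replicates 1 to 4, against 14.9, 13.6, 15.3 and 13.3 RPKM for the median intergenic peak. The ratio was 1.90, 2.24, 1.84 and 2.37, so promoters were higher in 4 of 4 libraries, and the ratio was largest in the 2 deeper libraries. With 4 libraries an exact paired permutation test cannot give a two-sided p under 0.125, which is the value it gave. Promoter peaks were also wider, with a median of 1041 bases against 475 bases for intergenic peaks, which RPKM takes into account.

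**Figure D2:**
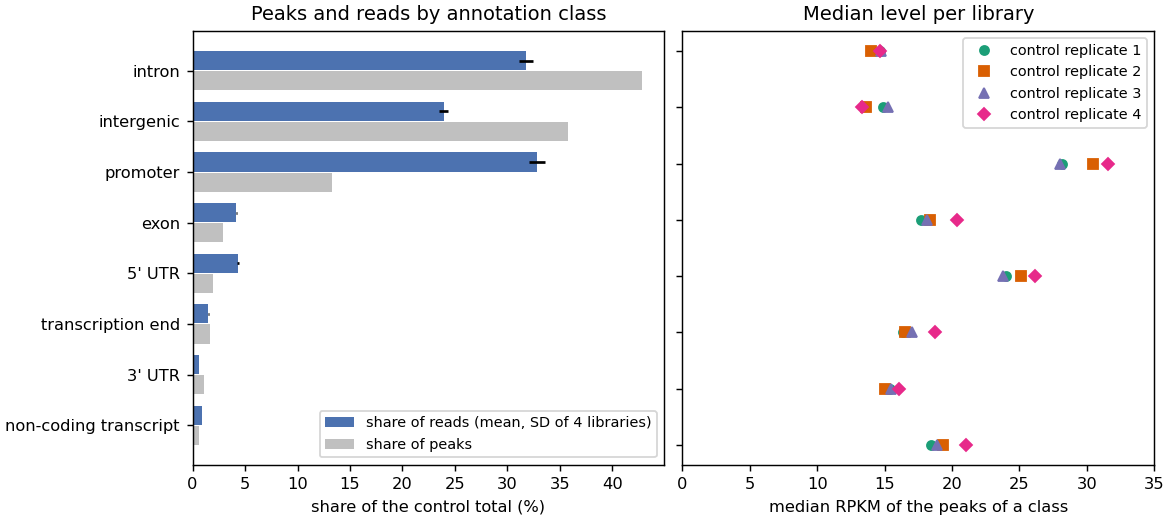
Left, share of reads (blue, mean with SD of 4 control libraries) and share of peaks (grey) by annotation class, in % of the control total; right, median RPKM of each class in each control library. Promoters hold 13.2% of peaks and 32.8% of reads, and their median lies between 28.0 and 31.6 RPKM in the 4 libraries.

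The annotation places a peak by its centre, which understates promoters. Of all peaks, 12252 (20.9%) covered a GENCODE M21 transcription start, and these held 50.3% of the reads. Among them, 5002 (40.8%) were not annotated as promoter, 2124 of which were listed as intron and 1064 as 5′ UTR. By distance, peaks within 1000 bases of a start held 48.4 ± 0.92% of reads, and the median level fell with each step outward, with 26.7 RPKM in that zone, 16.0 RPKM between 1000 and 10000 bases, 14.7 RPKM up to 50000 bases, 13.8 RPKM up to 100000 bases and 11.8 RPKM beyond 100000 bases.

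Peaks centred on LINE or LTR repeats were weaker and less even between libraries. The 2943 peaks in LINE elements (retrotransposons) had a median of 11.1, 7.93, 12.3 and 5.47 RPKM in control replicates 1 to 4, a range of over 2-fold, whereas peaks outside repeats and CpG islands had 16.4, 16.1, 16.7 and 17.0 RPKM. Replicates 2 and 4, the 2 deeper libraries, had the lower medians. LTR peaks had 14.6, 12.5, 14.3 and 11.9 RPKM, lower in the same 2 libraries by a smaller step. CpG island peaks, at 21.7, 22.6, 22.3 and 24.3 RPKM, showed no such drop.

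The strongest peaks were nearly all at promoters. The top 1% (585 peaks) held 6.91%, 7.04%, 6.79% and 5.62% of reads in control replicates 1 to 4, a mean of 6.59 ± 0.65%, on 1.52% of the sequence in peaks. Replicate 4 put the least of its reads there, and the strongest 1% ranked again without it held 7.03%. Of the 100 strongest peaks, 82 were annotated as promoter and 91 covered a GENCODE start, compared with 13.2% and 20.9% of all peaks.

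The strongest peak of the table lay at the promoter of Khsrp, an RNA-binding protein that promotes mRNA decay (chr17:57031405-57032355). It had 316, 296, 262 and 202 RPKM in control replicates 1 to 4. Evi5l, which encodes a Rab GTPase-activating protein, followed with 199, 250, 220 and 156 RPKM, and Ubxn6, a cofactor of the ATPase p97, with 197, 226, 201 and 168 RPKM. All 3 were lowest in replicate 4.

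The next promoters were those of the non-coding transcript 4932412D23Rik, with 193, 203, 199 and 133 RPKM, and of Trim45, a TRIM-family ubiquitin ligase, with 191, 187, 184 and 143 RPKM. Ripk2, the kinase below the NOD receptors, had 186, 175, 192 and 144 RPKM. Osbp, an oxysterol-binding lipid carrier, averaged 170 ± 15.6 RPKM, Cic, a transcriptional repressor whose peak was annotated as intron 1 and covered a start, 161 ± 18.1 RPKM, 1110020A21Rik 160 ± 20.1 RPKM and Ap2a1, a subunit of the clathrin adaptor AP-2, 156 ± 14.0 RPKM (SD, n = 4 each). None of these 10 is a known marker of LSECs, although AP-2 serves the clathrin-coated uptake in which these cells excel. Replicate 4 was the lowest library at 7 of the 10 peaks.

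Short sequence elements were frequent in the strongest promoters, and 5 windows that hold both of the most frequent are printed to show them. The windows are the central 200 bases of the peak on the plus strand of mm10, and capitals mark CCAAT, the core bound by NFY, and GGGCGG, the GC box bound by SP and KLF factors, on either strand.
Khsrp, chr17:57031781-57031980: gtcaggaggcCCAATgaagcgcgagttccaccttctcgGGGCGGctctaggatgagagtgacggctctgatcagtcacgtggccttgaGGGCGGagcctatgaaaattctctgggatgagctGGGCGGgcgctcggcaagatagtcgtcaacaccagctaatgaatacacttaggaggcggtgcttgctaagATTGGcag
Evi5l, chr8:4166192-4166391: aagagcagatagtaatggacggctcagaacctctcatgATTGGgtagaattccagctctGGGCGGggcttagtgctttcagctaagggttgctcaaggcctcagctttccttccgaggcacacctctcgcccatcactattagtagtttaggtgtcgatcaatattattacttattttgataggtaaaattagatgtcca
4932412D23Rik, chr16:42875498-42875697: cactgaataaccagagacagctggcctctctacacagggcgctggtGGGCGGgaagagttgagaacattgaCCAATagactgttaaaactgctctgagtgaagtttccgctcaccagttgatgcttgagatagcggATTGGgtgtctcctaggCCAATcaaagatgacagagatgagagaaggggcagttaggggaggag
Osbp, chr19:11965325-11965524: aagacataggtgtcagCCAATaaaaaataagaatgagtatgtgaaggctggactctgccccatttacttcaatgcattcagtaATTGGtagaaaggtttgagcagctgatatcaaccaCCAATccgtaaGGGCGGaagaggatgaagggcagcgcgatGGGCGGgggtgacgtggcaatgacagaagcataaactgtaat
Ap2a1, chr7:44929582-44929781: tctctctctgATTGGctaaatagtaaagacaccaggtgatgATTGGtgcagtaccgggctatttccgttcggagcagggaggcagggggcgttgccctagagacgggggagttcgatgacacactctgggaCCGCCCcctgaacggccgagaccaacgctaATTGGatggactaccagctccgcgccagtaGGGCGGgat
Each of these 5 windows held at least 1 CCAAT and at least 1 GC box. They were picked from the strongest peaks of the table after their letters were seen. Ubxn6, the next strongest peak after Evi5l, had no CCAAT in its window, and 1110020A21Rik had no GC box.

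Among the 1000 strongest promoter peaks, 48.0% held CCAAT in the central 200 bases (95% Wilson interval 44.9% to 51.1%, counting error only), compared with 25.8% of all 7753 promoter peaks and 18.1% of the weakest 1000. When the strongest 1000 were ranked in 1 library at a time, the share was 44.1%, 49.0%, 45.1% and 49.4% in control replicates 1 to 4. The GC box was in 62.9% of the strongest promoters, against 51.2% of all and 39.9% of the weakest. Median GC content was the same in the strongest and in all promoter windows, 63.5%. The ETS letters CAGGAAG were no more common there, with 7.80% of the strongest and 8.78% of all promoters. Another ETS element, CCGGAAGT, was in 6.10% of the strongest and 5.60% of all promoters. It was in 0.59% of the 34419 peaks over 1000 bases from any start and outside repeats and CpG islands.

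Only 6 of the 100 strongest peaks neither were annotated as promoter nor covered a start. A (TTAGGG)n simple repeat in intron 15 of Flt1, the gene of VEGF receptor 1, had 198, 115, 177 and 78.5 RPKM over 232 bases. A 226-base intergenic peak 12.3 kb from Pisd behaved alike with 173, 111, 177 and 83.8 RPKM. Both were high in the 2 shallow libraries and low in the 2 deeper ones. Their raw reads changed little with library size, with 261, 226, 240 and 249 at Flt1 and 222, 211, 233 and 259 at Pisd. A 4.5S RNA repeat near Klrb1c averaged 137 ± 21.3 RPKM, an exon peak of Spaca6 129 ± 23.4 RPKM, an intron peak of 2310001H17Rik 126 ± 5.34 RPKM and a peak in intron 1 of Sin3a 120 ± 17.7 RPKM.

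The 34419 distal peaks defined above, 58.8% of the table with 38.2% of its reads, showed other letters than promoters. The definition and its motif counts were chosen after seeing the data, because 41.7% of the strongest 1000 peaks outside HOMER's promoter class still covered a start. Among the 1000 strongest distal peaks, ranked by mean control RPKM, 26.9% held the ETS letters CAGGAAG. This compares with 20.3% of all distal peaks and 17.5% of the weakest 1000. Ranked in 1 library at a time, the share was 25.2%, 26.5%, 24.4% and 28.8% in control replicates 1 to 4, above the share of all distal peaks in each library.

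MAF letters were in 23.9% of the strongest, 18.3% of all and 12.9% of the weakest distal peaks, with 23.1%, 24.6%, 23.4% and 24.2% in the rank of each library. For the GATA letters the order was different, with 15.0% of the strongest, 14.3% of all and 24.0% of the weakest. SOX letters were in 16.5% of the strongest, 17.7% of all and 25.1% of the weakest, so both were most common in weak peaks. AP-1 letters were in 14.1% of the strongest and 17.2% of the weakest but in 10.5% of all. The strongest windows had a median GC content of 51%, against 45% in the weakest, and the part of base composition in these shares was not tested.

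The core of the CTCF motif, written as CCA, any 2 bases, AG, any 2 bases and GGC, went the other way. It was in 4.70% of the strongest distal peaks, 8.99% of all and 1.0% of the weakest, so it was most common at middle levels. The share among the strongest 1000 depended on the library, with 6.7%, 4.2%, 9.0% and 3.9% in control replicates 1 to 4, and was lower in replicates 2 and 4 than in replicates 1 and 3.

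Summed by gene, most reads lay under Jun, Cemip2 and Maf. The 100 genes with most reads held 4.29 ± 0.16% of the signal of 17780 genes, and 60 of them had at least 20 peaks. Jun, a subunit of the AP-1 transcription factor, had the highest sum, with 955, 721, 737 and 598 CPM in control replicates 1 to 4. A single peak over its only exon (chr4:95047354-95053613) held 65.5% of it. That peak had 107, 71.0, 68.9 and 55.2 RPKM, highest in replicate 1 and lowest in replicate 4.

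Cemip2, a cell-surface hyaluronidase, came second with 610, 720, 539 and 864 CPM, and its largest peak lay 135 kb downstream of the start. Maf followed. Dlc1, a GTPase-activating protein, had 617, 669, 548 and 762 CPM over 39 peaks, of which 34 were intronic. Plpp3, a lipid phosphatase that degrades lysophosphatidic acid, had 611, 657, 540 and 736 CPM. These 4 genes shared an order of libraries, replicate 4 above replicate 2 above replicates 1 and 3.

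Adgrl2, the adhesion receptor latrophilin-2, averaged 628 ± 22.9 CPM, Sash1, a signalling scaffold, 624 ± 70.3 CPM, and Rgs3, a regulator of G-protein signalling, 596 ± 37.3 CPM (SD, n = 4 each). Klf4, a flow-responsive transcription factor, had 551, 558, 549 and 463 CPM, and the predicted gene Gm1653 averaged 516 ± 22.4 CPM. Neighbours in this order overlapped in their library values, and the eleventh gene, Zfp608 at 511 ± 50.4 CPM, could take the place of the tenth. Without replicate 4, Jun was still first of these 10 genes with 804 CPM, and Adgrl2 (627 CPM) stood beside Maf and Cemip2 (623 CPM each). The plot of summed signal shows how the libraries of most genes overlap.

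**Figure D3:**
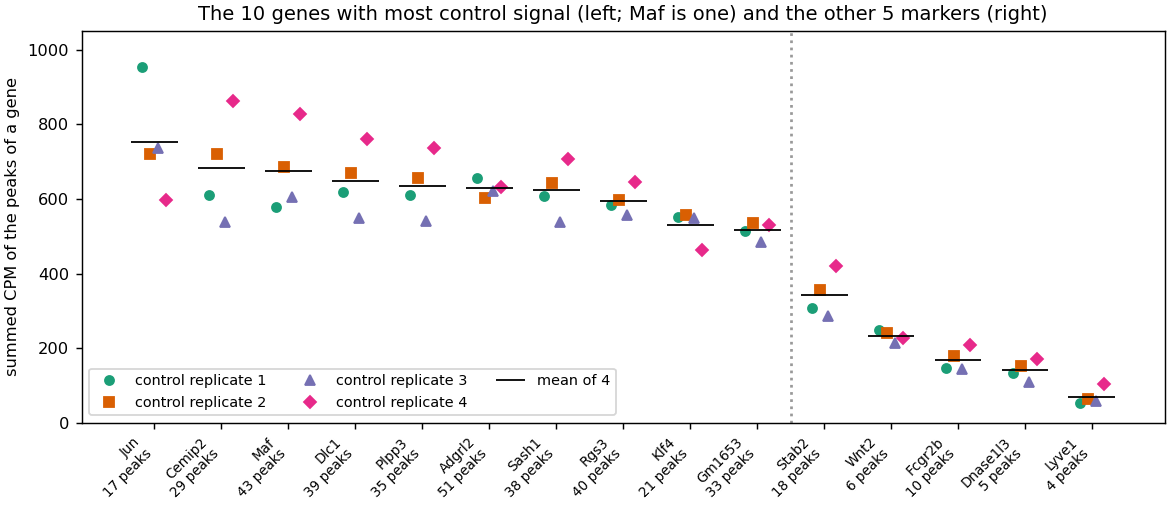
Summed CPM (y axis) of all peaks listed under a gene, 1 symbol per control library and a bar for the mean of 4: left of the dotted line the 10 genes with most signal, right of it the 5 other LSEC markers. Jun spans 598 to 955 CPM with replicate 4 lowest, and Maf spans 580 to 827 CPM with replicate 4 highest.

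A gene had a median of 2 peaks, 6354 genes (35.7%) had 1, and 117 had at least 20. Adgrl2 led with 51 peaks, followed by Maf with 43, Rgs3 with 40, Dlc1 with 39 and Sash1 with 38. Tns3, a focal adhesion protein, had 36 peaks, Plpp3 35, Gm1653 and the zinc finger gene Zfp608 33 each, and Frmd4a, a scaffold of cell polarity, 32. Of these 10 genes, 7 were also among the 10 with most signal. Frmd4a was tied at 32 peaks with 2010106C02Rik and 4930529K09Rik.

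Many peaks under these genes were far from them. Peaks nearest to Adgrl2 reached 731 kb from its start, those of Gm1653 811 kb and those of Zfp608 703 kb, whereas all 39 peaks of Dlc1 lay within 104 kb. Counting only peaks within 50000 bases of the start, 12 genes had 20 or more peaks. Jun, Dlc1 and Rgs3 stayed among the 10 genes with most signal, and Maf dropped to rank 634, which shows how much of its sum was distal.

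Gene lists differed in how many members had a peak over the transcription start. Of the 19 sinusoidal endothelial genes, 18 had a GENCODE start inside a peak, as did 20 of 20 pan-endothelial genes and 29 of 30 endothelial transcription factors, compared with 11745 of 21924 protein-coding genes (53.6%). Housekeeping genes were covered as often, in 15 of 16 cases. The exceptions were Dnase1l3, whose promoter peak ended short of the GENCODE start, and Nr2f2. HOMER's promoter class, which goes by the peak centre, gave 11 of 19, 15 of 20 and 17 of 30, compared with 31.8% of protein-coding genes. The lists hold genes known for these cells, and no test was run on them. Any listed peak counts as covering a start, and peaks were listed over both genotypes, so coverage sets no minimum level in controls.

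Among sinusoidal genes, the strongest promoter peaks were those of Ehd3, an endocytic ATPase, with 58.7, 63.5, 42.9 and 63.5 RPKM, and of Oit3, a secreted protein of LSECs, with 43.8, 60.6, 37.3 and 70.4 RPKM. Wnt2 and Maf followed. The orphan receptor Gpr182 had a start peak, not in the promoter class, with 28.2, 56.5, 38.1 and 65.6 RPKM. Like the members named as exceptions to a count, Gpr182 was picked after its values were seen. Gpr182 and Oit3 were higher in replicates 2 and 4 than in replicates 1 and 3, without overlap.

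The summed signal of the 19 sinusoidal genes was 3771, 4282, 3433 and 4910 CPM in control replicates 1 to 4, and that of the pan-endothelial genes 3224, 3561, 3110 and 4122 CPM. Housekeeping genes gave 1999, 2042, 1867 and 1988 CPM. The endothelial sums were highest in replicate 4, whereas the housekeeping sum was not.

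In HOMER's promoter class, pan-endothelial peaks were of middling strength, while peaks over the starts of the list, of any class, reached 67.8 RPKM. Tie1 and Tek, the angiopoietin receptor genes, averaged 44.4 ± 4.90 and 37.3 ± 4.32 RPKM, Egfl7, a secreted endothelial protein, 33.7 ± 10.4 RPKM, and Kdr, which encodes VEGF receptor 2, 31.5 ± 9.22 RPKM (SD, n = 4 each). The median promoter peak of the table was 29.6 RPKM. Housekeeping promoters were higher, with Rpl13a at 90.7 ± 8.87, Pgk1 at 64.1 ± 11, Eef1a1 at 55.5 ± 2.98 and Polr2a at 53.8 ± 10.5 RPKM.

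Among endothelial transcription factors the leading promoters were strong, while the median start peak of the list was 30.7 RPKM, near the 25.3 RPKM of the sinusoidal and 27.6 RPKM of the pan-endothelial list. Klf6 had 122, 112, 114 and 72.6 RPKM and Klf2, the flow-induced factor that maintains quiescent endothelium, 93.4, 109, 87.3 and 90.9 RPKM. Etv6, an ETS-family repressor, averaged 52.5 ± 4.95 RPKM and Tcf4, an E-box factor, 50.9 ± 6.79 RPKM. The AP-1 and MAF partner list had a start inside a peak for 17 of 18 genes, Mafg being the exception. This compares with 53.6% of protein-coding genes and 15 of 16 housekeeping genes. Among its leading promoters were Fos at 58.3 ± 8.05, Fosl2 at 50.5 ± 8.64 and Mafk at 42.2 ± 3.5 RPKM.

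Of 19 scavenging and endocytosis genes, 18 had a covered start, and the clathrin route led with Ap2a1 at 156 ± 14.0, the early endosome GTPase Rab5a at 109 ± 16.1, the clathrin adaptor Dab2 at 92.8 ± 13.4 and the clathrin heavy chain Cltc at 51.7 ± 12.0 RPKM. The receptor Fcgr2b was weaker at 17.7 ± 4.48 RPKM, and Lrp1 was the gene without a covered start. Of 12 angiocrine genes 11 had a covered start, led by the Notch ligands Jag1 at 46.5 ± 6.29 and Dll4 at 37.5 ± 8.15 RPKM with Wnt2 between them, and followed by Hgf, a growth factor for hepatocytes, at 28.8 ± 3.82 RPKM. All 7 genes of caveolae and the fenestral diaphragm had one, with Cavin2 at 78.0 ± 5.91 RPKM far above Cav1 at 17.3 ± 1.96, Plvap, the diaphragm protein that mature LSECs lack, at 16.3 ± 4.39, and Ehd2 at 10.4 ± 2.55 RPKM. The counts of these lists exceed the 53.6% of protein-coding genes but are near the 15 of 16 of housekeeping genes.

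Genes of continuous endothelium, the capillary type with a basement membrane, were covered in 9 of 14 cases, nearer to the share of all genes. Some of these starts may be listed through the knockout libraries, which was not tested. In the controls the covered starts had a median of 16.3 RPKM, and the weakest had 5.94 RPKM. Nid2, a basement membrane protein, had 25.2, 32.1, 30.1 and 35.2 RPKM at its promoter and Vwf, the clotting glycoprotein of larger vessels, 24.8, 16.6, 26.2 and 32.1 RPKM. Cav1 and Plvap came next. The median summed signal of the list was 35.3 CPM, compared with 169 CPM for the sinusoidal list and 19.0 CPM for all protein-coding genes. Ly6a and Ly6c1 had no peak. Of 6 lymphatic endothelial genes, 2 had a covered start, the transcription factor genes Prox1 at 14.9 ± 2.62 and Foxc2 at 12.9 ± 3.95 RPKM. The part of endothelium from larger vessels in these values was not tested.

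Genes of other lineages mostly had no listed peak over their starts. Weak regions are missing from the list of peaks, so a gene or start without a peak need not be closed. Over 8 lists with 106 genes, 13 (12.3%) had a start inside a peak, compared with 53.6% of protein-coding genes, and 64 had at least 1 peak anywhere, compared with 68.5% of protein-coding genes. Hepatocyte genes had 1 of 20, Trf (transferrin) at 12.0 ± 0.91 RPKM, and Alb, Hnf4a, Fga, Fgb, G6pc and Cyp2e1 had no peak. The Apoa2 promoter peak, at 41.5, 31.8, 32.5 and 45.02 RPKM, was annotated from an alternative RefSeq start and lay 979 bases from the nearest GENCODE start.

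Macrophage genes had 5 of 15 covered starts, all weaker than or near the median promoter. C1qa, a complement component, had 33.2, 29.9, 22.0 and 38.01 RPKM, the lysosomal protein Cd68 32.1, 30.7, 37.2 and 17.99 RPKM, C1qb 17.3 ± 4.47 RPKM and the leukocyte phosphatase Ptprc 18.9, 12.9, 13.8 and 6.16 RPKM. The fifth was Lyz2. No start of the Kupffer cell markers Clec4f, Vsig4, Timd4 or Adgre1 was covered, and Vsig4, Timd4 and Itgam had no peak at all. The summed signal of the list was 221, 194, 202 and 164 CPM in control replicates 1 to 4, lowest where the endothelial sums were highest, and the part of admixed cells in the results was not tested.

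No start was covered for 14 lymphocyte genes, 10 of which had no peak, or for 9 skeletal muscle genes, 7 of which had none. Lck, a T cell kinase, was the exception in level, with a peak 886 bases inside the annotated start at 36.9, 54.6, 33.4 and 69.7 RPKM. This gene was picked after its values were seen. Stellate cell genes had 2 of 16 covered starts, Pdgfra at 21 ± 3.38 and Lhx2 at 8.26 RPKM, and Lrat, Rgs5, Hand2, Ngfr, Lum and Colec11 had no peak. Cholangiocyte genes had 1 of 9, Epcam at 8.03 ± 1.47 RPKM, with no peak for Sox9 or Krt7. Neuronal genes had 3 of 13, Syn1 at 11.7 ± 2.46, Neurog2 at 10.9 ± 1.35 and Pax6 at 9.36 ± 3.58 RPKM, and germ cell genes 1 of 10, Dazl at 26.7 ± 4.74 RPKM. The plot of covered starts sets these lists beside the endothelial ones.

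**Figure D4:**
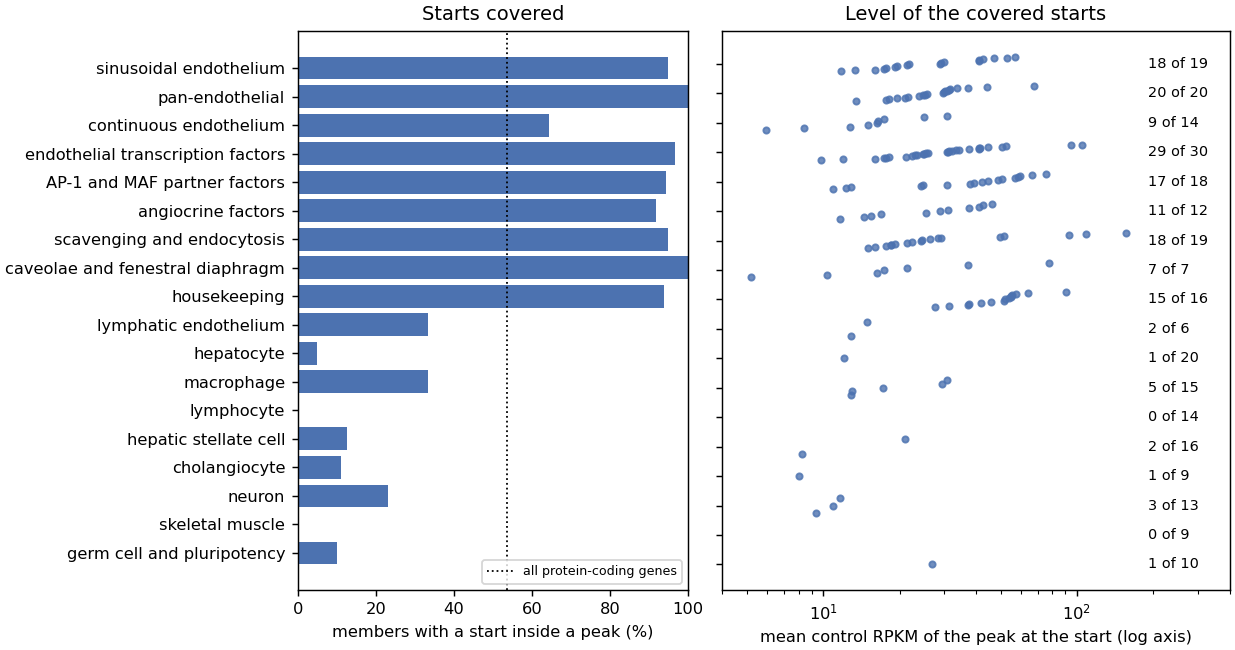
Left, share of the members of each gene list, other than the 6 markers taken alone, with a GENCODE start inside a peak (%), with all protein-coding genes (53.6%) as the dotted line; right, mean control RPKM of the strongest such peak of each covered member on a log axis, with the number covered of the number in the list. Of the lists shown, the endothelial, AP-1 and MAF partner, angiocrine, scavenging, caveolae and housekeeping lists lie above 90% except continuous and lymphatic endothelium, and the other lineages lie at or below 33.3%.

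Spread between control libraries was moderate and depended on the depth of a peak. The count model of edgeR gave a biological coefficient of variation of 21.1%, and 16.2% without replicate 4. Peaks with 10 to 25 reads on average had a median CV of 41.1%, and peaks with over 500 reads 12.0%, compared with 23.6% and 3.95% that counting alone gives at those means. Promoter peaks varied less, with a median CV of 14.7% against 25.2% for intergenic peaks, but they were also deeper.

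Of 12476 peaks with at least 200 reads on average, the most even were an intron peak of Ipmk and promoters of Usp34, Ncl and Srpr, with an intron peak listed under 5031434C07Rik. The Ncl promoter had 71.9, 72.3, 72.9 and 74.9 RPKM. The most variable were intergenic peaks listed under 1810063I02Rik, Med9os, Olfr1396, Mir6516 and 6530402F18Rik. At 1810063I02Rik the values were 20.2, 24.2, 17.4 and 52.1 RPKM, and at Med9os 16.8, 30.02, 15.2 and 48.3 RPKM. Of these 5, 4 lay on chromosome 11 and replicate 4 was the highest library at each.

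Chromosome 11 was the chromosome on which the libraries parted most, apart from Y with its 4 peaks. It took 5.39%, 6.31%, 5.45% and 7.22% of reads in control replicates 1 to 4, and 31 of the 100 most variable peaks lay on it, compared with 6.69% of all peaks of that depth. Megabases with at least 30 protein-coding starts were also favoured in replicate 4, with a share 1.17 times that in replicate 1, and those with under 2 starts were at 0.80 times. Within each band of gene density, the ratio of replicate 4 to replicate 1 was higher on chromosome 11 than elsewhere, 1.51 against 1.14 in the densest band and 0.97 against 0.84 in the sparsest. The part of gene density in the spread was not tested beyond these values.

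**Figure D5:**
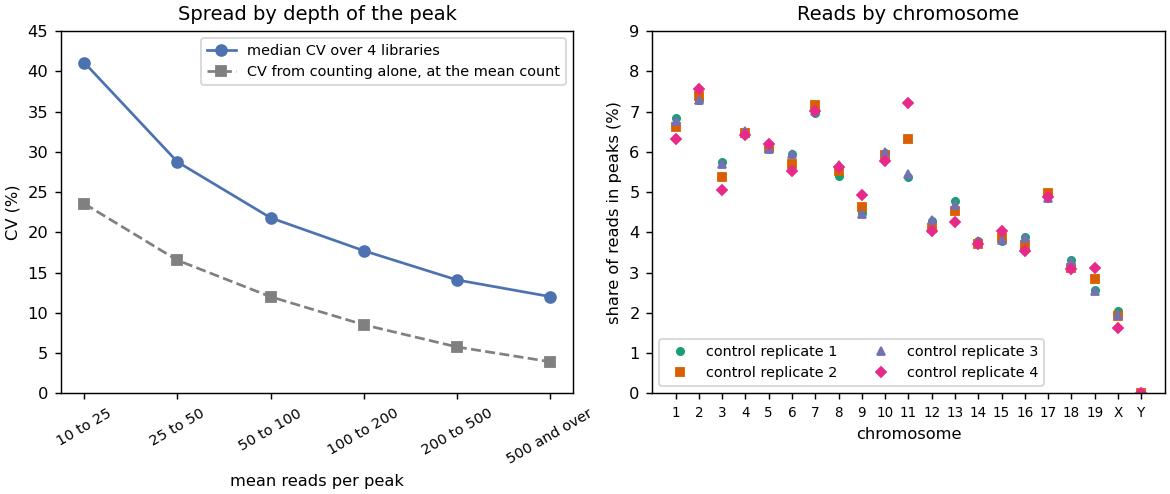
Left, median CV over the 4 control libraries (blue, %) by mean reads per peak and the CV that counting alone gives at the mean count (grey); right, share of reads in peaks by chromosome for each control library (%). The CV lies between 12.0% and 41.1%, and on chromosome 11 replicate 4 lies at 7.22% against 5.39% in replicate 1.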

How the data were processed

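ATAC-seq was made from control LSECs (4 libraries). Per the methods and labels, the authors trimmed, aligned to mm10, removed duplicates, called peaks with MACS2, merged peaks of both genotypes with bedtools 2.30.0 and annotated them with HOMER 4.11. The deposited table holds the authors' raw read counts and RPKM per library, and also values headed TMM and the authors' own comparison (fold changes, standard errors, p-values), none of which was used. Its smallest summed RPKM over 8 libraries is 48.4, so weak regions are missing from it, and reads in listed peaks are 94.7% to 97.7% of the totals that the RPKM imply. No shift of read ends for Tn5 is named in the sources used here.

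Counts were scaled by TMM (edgeR 4.0.16, R 4.3.3), and gene sums take every peak listed under a gene (68 peaks, 0.07% of reads, name none). Spread was estimated with an intercept-only edgeR model after filterByExpr, which kept 53099 peaks, and was checked on simulated counts. Log2 CPM used a prior count of 2. Peak coordinates lie within the chromosome lengths of GRCm38 (mm10). Starts came from GENCODE M21, and 20 motifs were searched on both strands of central windows read from GRCm38. Wilson intervals and all counts cover counting error only.

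The text names the 6 markers, the 10 strongest peaks and genes by each rank, up to 4 members of each of 19 lists by promoter level, uncovered members of other lineages, and the 5 most and least variable deep peaks. Members, lists and motifs were chosen with earlier results of these data known. Alternatives were other normalization, filters, ranks, promoter definitions and windows, and leaving out each library. Values of some list members are not reported here.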

Additional observations from a re-analysis of the deposited data

Results flagged for a closer look

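In 157 results the 4 control values were searched for a library far from the other 3 (Dixon's 95% limit), and 8 passed, 7 of them in replicate 4 and 1 in replicate 2. The limit is set to pass about 1 in 20 independent groups by chance. The 157 results share peaks and reads, so this rate cannot be set against the 8, and the part of chance was not tested.

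Replicate 4 lay apart for the intron share of reads, at 32.7% against 31.2% to 31.5% in the other libraries, and for the share of chromosome 5, at 6.20% against 6.07% to 6.09%. For summed signal at Klf4 it gave 463 CPM against 549 to 558 CPM. Strong promoters were lower in it, with 133 RPKM at 4932412D23Rik against 193 to 203 RPKM, and 143 RPKM at Trim45 against 184 to 191 RPKM. Distal marker peaks were higher, with 44.0 RPKM at the Stab2 peak 7.17 kb upstream of the start against 25.2 to 27.3 RPKM, and 28.8 RPKM at the Maf peak 125 kb downstream against 17.4 to 17.9 RPKM. Replicate 2 lay apart in the median level of intron peaks, at 14.0 RPKM against 14.6 to 14.7 RPKM.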

How the results depend on the processing

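No paired analysis was possible because no group was compared with another. The promoter share of reads (32.8%) became 13.2% as a share of peaks, 23.6% of summed RPKM, 48.4% for peaks within 1000 bases of a start and 50.3% for peaks covering a GENCODE start. Promoter over intergenic level (2.09) became 5.03 for CPM per peak, which does not correct for width. The strongest 1% held 7.71% of reads ranked by CPM. Within 50000 bases of starts, the leading 100 genes held 3.64% of signal, and 12 genes in place of 117 had 20 or more peaks. Only 9 had as many among peaks at or above the median RPKM. Sinusoidal genes with a promoter peak numbered 11, or 18 within 1000 bases, 18 by covered start and 5 above the median promoter. Over the lists of other lineages it was 9, or 19 within 1000 bases and 2 above the median. The lowest pairwise correlation was 0.879 at 50 or more reads. ETS letters in strong non-promoter peaks (18%) became 30.7% with windows of 400 bases and 26.9% in distal peaks, a set added after seeing the data, as were covered starts and results without chromosome 11 (BCV 20.7%).

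Leaving out 1 library at a time, BCV ran between 16.2% (without replicate 4) and 23.6% (without replicate 2), and the lowest correlation between 0.906 and 0.943, again without replicates 2 and 4. The other 30 of 32 such values for the main results, and all 152 for intron and intergenic shares, named genes and motifs, stayed within set limits. The limit was the SD over libraries for shares, ratios and gene sums, the Wilson interval for motifs and a fixed fold for counts. A mean over the libraries left cannot move by the SD of all 4, so for class shares and gene sums this limit could not be passed. Peaks of 10 to 25 reads have a median CV of 41.1%, against the 23.6% that counting alone gives.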
